A study of Homo sapiens with 16 samples.

Results

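A set of 10 genes that ERK signalling switches on were followed across the libraries of a study of lung adenocarcinoma cells: DUSP4, DUSP5, DUSP6, SPRY2, SPRY4, SPRED1, SPRED2, ETV4, ETV5 and PHLDA1. They were chosen by symbol among the protein-coding genes, 10 of 19951 protein-coding genes and of 58735 genes in all, and each symbol matched 1 gene. NCI-H1975, a line whose EGFR gene carries an activating mutation together with one that confers drug resistance (genotype WT in the labels), was sequenced as control, after magnolin and after the chloroform parts of Flos Magnoliae, with 4 libraries a group. Flos Magnoliae is the dried flower bud of Magnolia, magnolin is a lignan found in it, and the chloroform parts are called the fraction here. Parental HCC827 cells, a line with an activating EGFR deletion (also WT in the labels), gave 2 libraries. HCC827 cells with afatinib resistance were not analysed here. No dose, exposure time or vehicle is given in the sources used here, so the treatments may differ in dose or time. Nothing says that the replicates were separate cultures, so the p-values reflect the spread among these libraries alone, which may be technical.

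ERK is the last kinase of the cascade that runs from receptors such as EGFR through RAS, RAF and MEK, and it raises the transcription of genes that in turn restrain it. DUSP proteins remove phosphate from ERK and related kinases, while Sprouty and SPRED proteins act higher up, between the receptor and RAF. ETV4 and ETV5 are ETS family transcription factors, and PHLDA1 is a pleckstrin homology-like domain protein. In lung cancer cells that depend on mutant EGFR, the transcripts of such genes are commonly read as a measure of ERK output.

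Because several of these genes moved together, the DNA before their start sites was searched for the GGAA core that ETS factors bind. RefSeq (GRCh38.p14) gave start-site windows for 6 of the 10 genes, and the 250 bases before each start were read. Of the members that rose with the fraction, SPRY4 and SPRY2 have a window that lies outside the untranslated regions of GENCODE 29, and these are shown 5′ to 3′ on the strand of the gene with each GGAA, or its complement TTCC, in capitals. SPRY4, which had the largest log2 change, is read from chr5:142324248-142324497 (minus strand), which overlaps an exon of a SPRY4 transcript. SPRY2 is read from the first of its 3 windows, chr13:80341127-80341376 (minus strand). This window lies before the SPRY2 gene of GENCODE 29, and the bases after it were not found in a SPRY2 transcript of that annotation. Those after the third window, chr13:80339660-80339909, which is not shown, were found in one.
SPRY4: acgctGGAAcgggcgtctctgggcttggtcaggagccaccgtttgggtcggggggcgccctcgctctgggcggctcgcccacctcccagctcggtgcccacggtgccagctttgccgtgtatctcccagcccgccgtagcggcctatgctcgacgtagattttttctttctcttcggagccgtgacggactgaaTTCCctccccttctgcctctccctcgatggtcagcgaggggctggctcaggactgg
SPRY2: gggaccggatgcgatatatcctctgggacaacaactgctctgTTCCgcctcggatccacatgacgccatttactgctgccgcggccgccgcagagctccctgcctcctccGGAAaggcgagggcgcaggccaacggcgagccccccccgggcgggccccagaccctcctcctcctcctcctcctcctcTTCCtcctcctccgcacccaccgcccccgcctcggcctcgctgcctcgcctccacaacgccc
The SPRY4 window held 2 such matches and the SPRY2 window 3, beside a median of 3 over 35116 RefSeq windows of the same length, of which 92.7% held at least 1. The windows of DUSP6, SPRED1 and PHLDA1 held 6, 3 and 4. The longer form CCGGAA, which contains the shorter one, was searched on both strands and lay in 14.5% of all windows. Among the members it was present in the SPRY2 window shown and in that of PHLDA1. It was not in the other SPRY2 windows or in those of DUSP6, SPRY4, SPRED1 or SPRED2. The AP-1 site TGANTCA (6.57% of all windows) and the CRE site TGACGTCA (1.65%) were in none of the 9 windows of the 6 genes. A match is a description of these letters and not a measured binding site.

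Levels are FPKM, reads scaled to gene length and library size, so they can be compared between genes. Replicates 1 and 2 of the NCI-H1975 groups stand in one table, replicates 3 and 4 in another and HCC827 in one of its own, and the tables were normalized separately. Depth was 16.0 to 21.3 M reads in NCI-H1975 and 15.9 to 16.4 M in HCC827, and the 10 genes had 202 to 8175 reads each. Replicates 1 and 2 stood apart from each other in every group: the sum of 8 epithelial markers was 1212 to 1428 FPKM in replicate 1 and 409 to 601 in replicate 2. In replicates 3 and 4 that sum was 637 to 645 in control, 457 to 464 with magnolin and 429 to 470 with the fraction, and all 8 markers exceeded 1 FPKM in every library. None of 6 leukocyte markers reached 1 FPKM in any library, and CD3E was at 0 in all of them. Of 4 endothelial markers 2, PECAM1 and CDH5, exceeded 1 FPKM in controls 3 and 4 (all 4 summed, 4.35 to 6.34). None did in replicates 3 and 4 with magnolin (1.54 to 1.80) or the fraction (1.03 to 1.11). KDR went the other way, at 0.10 and 0.06 in controls 3 and 4 and 0.17 and 0.20 with the fraction. In a cultured line these low values do not show that cells of another type were present. In bulk RNA, fewer cells of a type and less RNA per cell cannot be told apart.

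All 10 genes were expressed in every library, from 1.77 FPKM for SPRY4 in control 3 to 53.0 for PHLDA1 in fraction 1. In controls 3 and 4, DUSP5 (21.1 ± 1.20 FPKM, SD, n = 2) and PHLDA1 (20.6 ± 0.158) were the highest and overlapped. DUSP4 followed at 13.0 ± 0.307, SPRY2 at 8.39 ± 0.282 and ETV5 at 7.87 ± 0.0380, none of which overlapped its neighbours. SPRED2 (5.44 ± 0.183) and SPRED1 (5.41 ± 0.0145) could not be separated, nor could ETV4 (4.22 ± 0.190) and DUSP6 (4.12 ± 0.181). SPRY4 was the lowest, at 1.85 ± 0.106. With the fraction the order of replicates 3 and 4 became PHLDA1, then DUSP4 and DUSP5, which overlapped, then ETV5, SPRY2, SPRED1 and DUSP6. At its lower end SPRED2 overlapped ETV4, and ETV4 overlapped SPRY4.

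**Figure D1:**
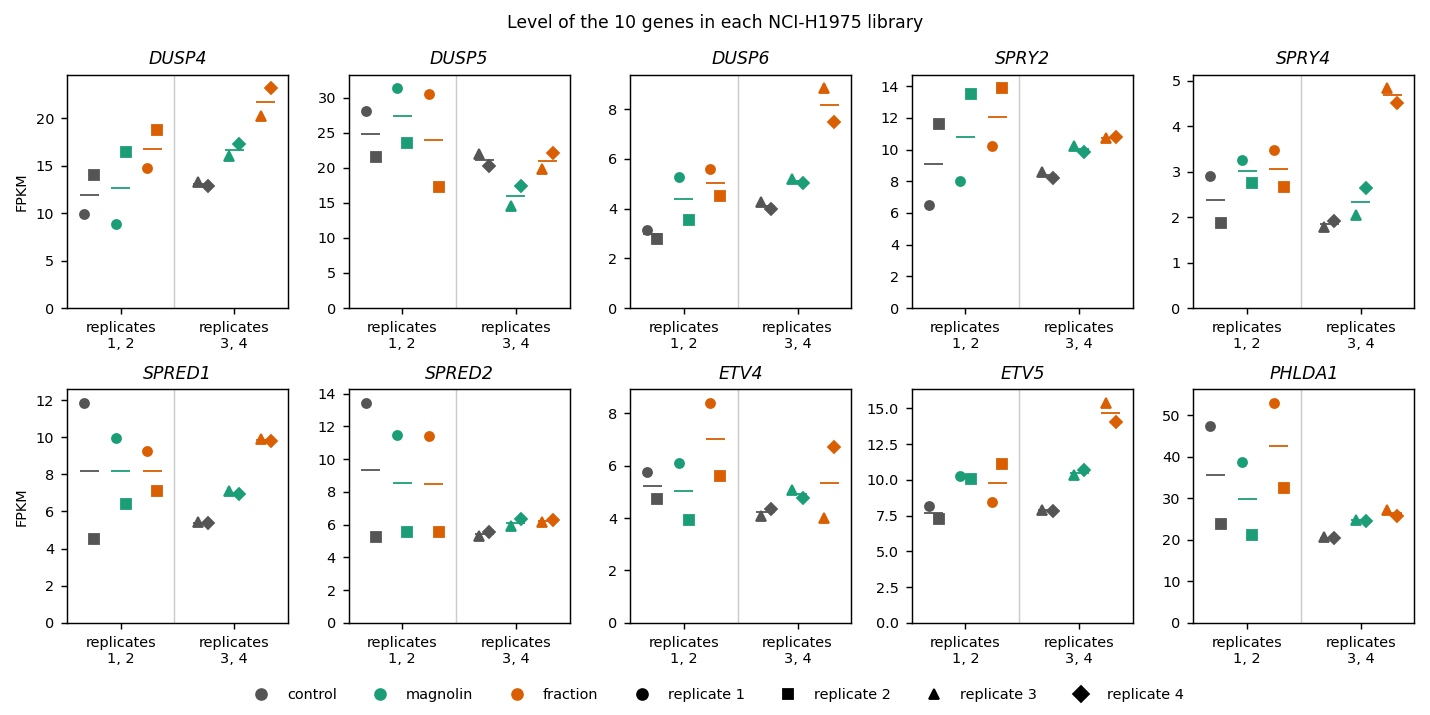
FPKM of the 10 genes in each NCI-H1975 library (points, shape by replicate number, colour by group) with group means (lines), replicates 1 and 2 left and replicates 3 and 4 right of the grey line. In replicates 3 and 4 the fraction libraries lie above both controls for 8 genes; in replicates 1 and 2 the 2 libraries of a group lie far apart for SPRED1, SPRED2 and PHLDA1.

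In replicates 3 and 4, 7 of the 10 genes rose with the chloroform fraction against control and none fell (limma, adjusted p under 0.05 over all 14673 genes tested). The same rule called 19.9% of all genes tested in either direction and 8.33% as higher. The median log2 change was 0.52 for the 10 genes and -0.01 for all genes tested. The 7 were DUSP4, DUSP6, SPRY2, SPRY4, SPRED1, ETV5 and PHLDA1, while DUSP5, SPRED2 and ETV4 did not pass. Both fraction libraries exceeded both controls for 8 of the 10 genes, as they did for 29.2% of all genes tested. Changes here and below are differences of mean log2(FPKM + 1), which understate the change of a gene with a low level.

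Among the phosphatases, DUSP6 (chr12:89347232-89353271, minus strand, hg38), which acts on ERK in the cytoplasm, was at 4.25 and 4.0 FPKM in controls 3 and 4, 5.19 and 5.02 with magnolin, and 8.87 and 7.50 with the fraction. The 3 groups did not overlap, with the fraction highest and magnolin between. DUSP6 was higher with the fraction by 0.84 ± 0.0999 (SE) on the log2 scale (limma, adjusted p = 0.00428), a ratio of mean FPKM of 1.98. DUSP4 (chr8:29333064-29350668, minus strand), a nuclear phosphatase of ERK and its relatives, was at 13.3 and 12.8 in controls, 16.0 and 17.3 with magnolin, and 20.3 and 23.2 with the fraction. Its groups had the same order without overlap, and the fraction changed it by 0.69 ± 0.0918 (limma, adjusted p = 0.00577). Without control 4 the adjusted p for DUSP4 was 0.0568. DUSP5 (chr10:110497838-110511544, plus strand), a nuclear phosphatase specific for ERK, was at 22.0 and 20.3 in controls, 14.5 and 17.4 with magnolin, and 19.8 and 22.1 with the fraction. Fraction and control overlapped (difference -0.01 ± 0.110), and DUSP5 was the only member whose magnolin libraries lay below both controls.

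Among the inhibitors that act between receptor and RAF, SPRY4 (chr5:142310427-142326455, minus strand) was at 1.77 and 1.92 FPKM in controls, 2.04 and 2.63 with magnolin, and 4.84 and 4.51 with the fraction. The fraction libraries lay well above the other 4, and the change of 1.0 ± 0.125 (limma, adjusted p = 0.00499) was the largest of the 10 genes, a ratio of means of 2.53. SPRED1 (chr15:38252326-38357249, plus strand), which brings the RAS inactivator neurofibromin to the membrane, was at 5.42 and 5.40 in controls, 7.12 and 6.92 with magnolin, and 9.89 and 9.78 with the fraction. Its libraries formed 3 tight steps, and the fraction changed it by 0.76 ± 0.0728 (limma, adjusted p = 0.00233). SPRY2 (chr13:80335976-80340951, minus strand) was at 8.59 and 8.19 in controls, 10.2 and 9.86 with magnolin, and 10.7 and 10.8 with the fraction. Both treatments lay above control and close to each other, and the change with the fraction was 0.32 ± 0.0729 (limma, adjusted p = 0.0303). With the replicate number as a block the adjusted p for SPRY2 was 0.0620, so that call was lost. SPRED2 (chr2:65310851-65432637, minus strand), the close relative of SPRED1, was at 5.31 and 5.56 in controls, 5.90 and 6.35 with magnolin, and 6.15 and 6.28 with the fraction. Its difference from control was 0.17 ± 0.0808 (limma, adjusted p = 0.206), with both fraction libraries above both controls.

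Of the ETS factors, ETV5 (chr3:186046308-186110318, minus strand) was at 7.90 and 7.85 FPKM in controls, 10.3 and 10.7 with magnolin, and 15.4 and 14.0 with the fraction. The groups again formed 3 steps, and the change with the fraction was 0.82 ± 0.0788 (limma, adjusted p = 0.00233), a ratio of means of 1.87. ETV4 (chr17:43527844-43579620, minus strand) was at 4.09 and 4.36 in controls, 5.06 and 4.77 with magnolin, and 4.02 and 6.70 with the fraction. The 2 fraction libraries lay on either side of the control and magnolin values, and the difference of 0.25 ± 0.196 did not pass (limma, adjusted p = 0.410). Without fraction 3 the ETV4 difference was 0.56 (adjusted p = 0.0183), and without fraction 4 it was -0.06. ETV4 overlaps DHX8 on the opposite strand (4.72 to 7.84 FPKM) and ETV5 overlaps DGKG on the same strand (0.668 to 1.67 FPKM). The strand setting of the counting is not given in the sources used here, so reads of ETV4 and DHX8 cannot be told apart with certainty.

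PHLDA1 (chr12:76025447-76033932, minus strand) was at 20.7 and 20.4 FPKM in controls, 24.9 and 24.6 with magnolin, and 27.1 and 25.8 with the fraction. Its groups did not overlap, though the change with the fraction was only 0.35 ± 0.0673 (limma, adjusted p = 0.0183). Without control 3 or control 4 the adjusted p for PHLDA1 was 0.112 and 0.131. For SPRY2 it was 0.120 and 0.189. DUSP6, SPRY4, SPRED1 and ETV5 were called in each of the 13 alternative fits of this comparison, with highest adjusted p of 0.0443, 0.0412, 0.0300 and 0.0291.

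The share of reads on mitochondrial genes moved with the same groups. It was 5.83 to 5.84% in controls 3 and 4, 6.38 to 6.40% with magnolin and 7.04 to 8.17% with the fraction, and the epithelial marker sum given above was lower in the treated libraries, where 3 of its 8 genes were called lower with the fraction. In replicates 1 and 2 the mitochondrial share overlapped between groups, at 8.06 to 9.42% in control, 8.38 to 8.80% with magnolin and 7.60 to 8.42% with the fraction. The part of either in the changes of the 10 genes was not tested.

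Magnolin against control in replicates 3 and 4 called none of the 10 genes (limma) and 0.627% of all genes tested, which was 92 genes, or 43 with the replicate block. At an unadjusted p under 0.05 there were 7 members, beside 14.2% of all genes tested (2083 of 14673). Limma voom on rebuilt reads called 1 member, DUSP5 (adjusted p = 0.0451). Both magnolin libraries lay above both controls for 9 of the 10 genes, beside 28.4% of all genes tested. The median difference was 0.24 for the members and 0.01 for all genes tested. The values nearest the threshold were those of ETV5 (0.38 ± 0.0788, adjusted p = 0.117) and SPRED1 (0.32 ± 0.0728, adjusted p = 0.135). DUSP5, the exception in direction, was at -0.39 ± 0.110 (adjusted p = 0.208).

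The fraction against magnolin, both taken from replicates 3 and 4, called 5 of the 10 genes as higher and none as lower (limma), beside 14.9% of all genes tested in either direction. SPRY4 differed by 0.77 ± 0.125 (adjusted p = 0.0163), DUSP6 by 0.59 ± 0.0999 (0.0186), ETV5 by 0.45 ± 0.0788 (0.0201), SPRED1 by 0.43 ± 0.0728 (0.0180) and DUSP4 by 0.36 ± 0.0918 (0.0493). With the replicate block the adjusted p for DUSP4 was 0.0730. SPRY2 (0.09 ± 0.0729), PHLDA1 (0.09 ± 0.0673), SPRED2 (0.02 ± 0.0808) and ETV4 (0.07 ± 0.196) did not pass, and DUSP5 was at 0.38 ± 0.110 (adjusted p = 0.0707). For 8 members both fraction libraries exceeded both magnolin libraries, as for 26.8% of all genes tested. Without magnolin 3 or magnolin 4 none of the 10 genes was called, and without control 3 or control 4, which enter only the shared spread, 2 were. This comparison shares its libraries with the other 2, so the 3 are not independent.

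**Figure D2:**
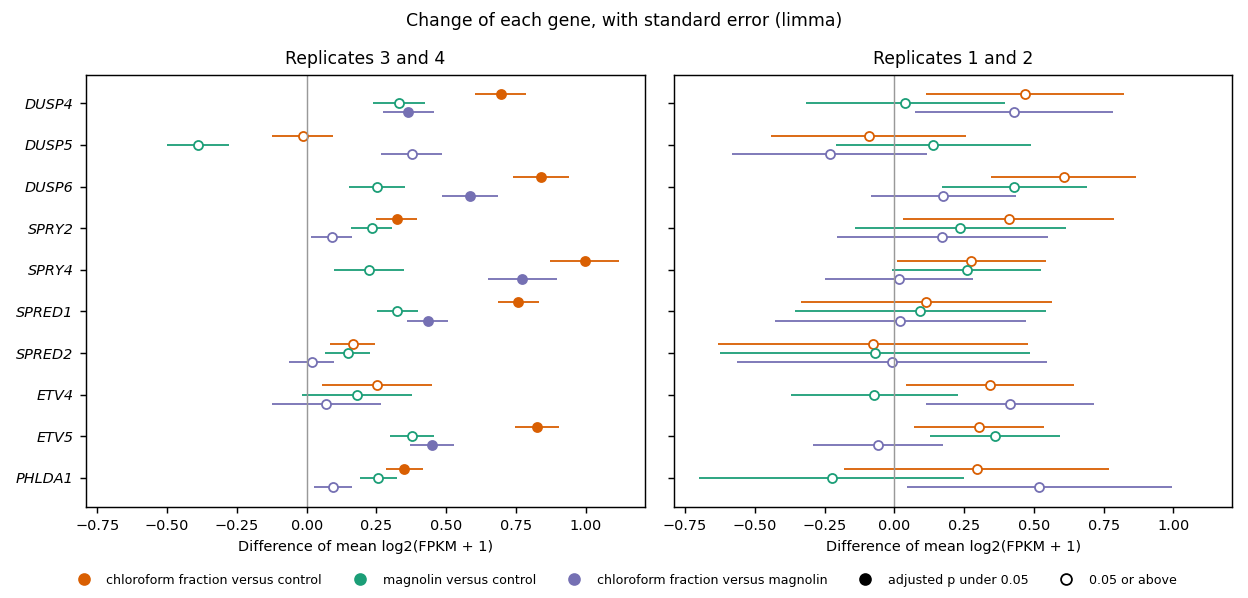
Difference of mean log2(FPKM + 1) for each gene (points) with its standard error (bars), for 3 comparisons in replicates 3 and 4 (left) and replicates 1 and 2 (right); filled points passed an adjusted p of 0.05 in limma. On the left 7 fraction-versus-control points and 5 fraction-versus-magnolin points are filled; on the right none is, and the bars are wider.

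In replicates 1 and 2 none of the 10 genes was called in any of the 3 comparisons (limma, with or without the replicate block, and limma voom). The fit without the block called 0% of 13103 genes in each comparison, and none of the 10 genes was at an unadjusted p under 0.05 in it. At that p there were 107 genes for the fraction against control, 255 for magnolin against control and 93 for the fraction against magnolin. With the block 24, 130 and 24 genes passed. At an unadjusted p under 0.05 with the block there were 3, 1 and 3 of the 10 genes, beside 6.11%, 14.9% and 6.5% of all genes tested. DUSP6 was at 3.15 and 2.77 FPKM in controls 1 and 2, 5.28 and 3.53 with magnolin, and 5.58 and 4.51 with the fraction. Both treatments lay above both controls, and the fraction differed from control by 0.61 ± 0.259 (unadjusted p = 0.0584, adjusted p with the block = 0.282). DUSP4, at 9.91 and 14.0 in controls, 8.91 and 16.5 with magnolin and 14.8 and 18.8 with the fraction, differed by 0.47 ± 0.355. ETV5, at 8.16 and 7.24, then 10.3 and 10.04, then 8.47 and 11.1, differed by 0.30 ± 0.233. These 3 were the members whose fraction libraries both exceeded both controls, beside 7.92% of all genes tested. With magnolin 2 members did so, DUSP6 and ETV5, beside 12.7% of all genes tested.

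For the other 7 genes the fraction and control libraries overlapped, and replicates 1 and 2 lay apart. SPRY4 was at 2.91 and 1.86 FPKM in controls 1 and 2, 3.26 and 2.76 with magnolin, and 3.47 and 2.67 with the fraction. SPRED1 was at 11.9 and 4.54, then 9.97 and 6.39, then 9.28 and 7.12. SPRED2 was at 13.4 and 5.24, then 11.5 and 5.56, then 11.4 and 5.53. For these 3 genes the first library of each pair was the higher one. PHLDA1 was at 47.4 and 23.7, then 38.8 and 21.1, then 53.0 and 32.4, and DUSP5 at 28.1 and 21.5, then 31.4 and 23.5, then 30.6 and 17.2. ETV4 was at 5.77 and 4.71, then 6.10 and 3.94, then 8.40 and 5.61. SPRY2 went the other way, at 6.50 and 11.6, then 8.04 and 13.5, then 10.2 and 13.9. In all, 7 members were higher in replicate 1 than in replicate 2 in every group, 2 were lower (DUSP4 and SPRY2) and ETV5 was mixed. The largest ratio between replicates 1 and 2 was 2.61, for SPRED1 in control, and that between replicates 3 and 4 was 1.67, for ETV4 with the fraction. The epithelial marker sum separated the same 2 libraries (1251 and 601 FPKM in controls 1 and 2, with EPCAM at 193 and 14.4). In these controls KRT8 (119 and 171) and ELF3 (5.22 and 7.88) went the other way. The part of the epithelial markers in the levels of the 10 genes was not tested.

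Both tables were then fitted together with the replicate number as a block, so that each difference is taken within a number. The fraction against control called 1 of the 10 genes, DUSP6 (0.72 ± 0.108, limma, adjusted p = 0.0328), and 0.542% of 12539 genes tested. DUSP4 was at 0.58 ± 0.110 (adjusted p = 0.0538), SPRY4 at 0.64 ± 0.164 (0.116), ETV5 at 0.56 ± 0.135 (0.0956) and SPRY2 at 0.37 ± 0.0869 (0.0936). The median was 0.40 for the members and -0.02 for all genes tested, and 8 members were at an unadjusted p under 0.05, beside 19.4% of all genes tested (2427 of 12539). Without replicate 1 DUSP6, SPRED1 and ETV5 were called, among 137 genes in all, and without replicate 2 DUSP4 and DUSP6, among 191. None was without replicate 3 or replicate 4, where the adjusted p of DUSP6 was 0.256 and 0.245. With a term for the table in place of the block it was 0.170. Neither magnolin against control nor the fraction against magnolin called a gene in the joint fit (limma, 0% of 12539 each; 1231 and 913 genes at an unadjusted p under 0.05, or 9.82% and 7.28%). Of the members 3 and 4 were at an unadjusted p under 0.05 there, and limma voom called none of them.

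Within replicate numbers the fraction library exceeded its control in all 4 numbers for 6 members: DUSP4, DUSP6, SPRY2, SPRY4, ETV5 and PHLDA1. Among all genes tested 13.5% did so. DUSP6 had the ratios 1.77, 1.63, 2.09 and 1.88 in replicates 1 to 4, and SPRY4 had 1.19, 1.43, 2.73 and 2.35. SPRED1 had 0.783 in replicate 1, the only number in which it was lower, and 1.57, 1.83 and 1.81 in the others. Magnolin exceeded control in all 4 numbers for 4 members, DUSP6, SPRY2, SPRY4 and ETV5, beside 11.8% of all genes tested. Its ratios for ETV5 were 1.26, 1.39, 1.31 and 1.36, and those for SPRY2 were 1.24, 1.16, 1.19 and 1.20. The fraction exceeded magnolin in all 4 for 4 members, beside 5.53% of all genes tested.

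**Figure D3:**
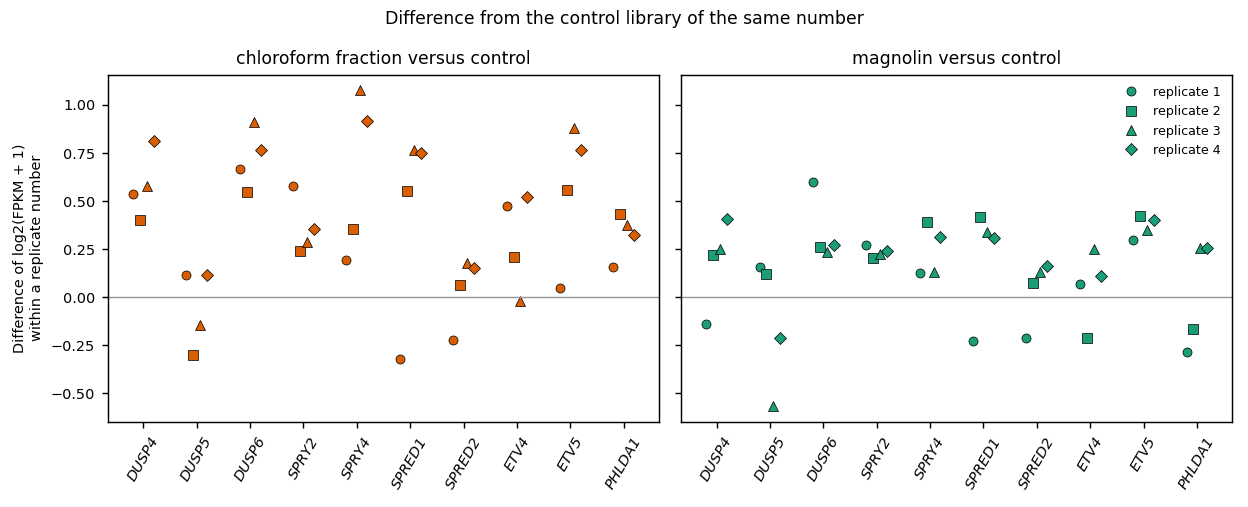
Difference of log2(FPKM + 1) between a treated library and the control library of the same replicate number (points, shape by number), for the fraction (left) and magnolin (right). DUSP6 lies above 0 at all 4 numbers in both panels, and the magnolin points of SPRY2 and ETV5 lie close together; SPRED1 and SPRED2 lie below 0 in replicate 1 only.

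Whether a gene moved differently in the 2 tables was tested directly. No member passed for the fraction (limma, 0.00798% of 12539 genes tested, which was 1 gene) or for magnolin (0%). SPRY4 had the largest difference between tables, 0.72 ± 0.278 higher in replicates 3 and 4 (unadjusted p = 0.0297), followed by SPRED1 at 0.64 ± 0.496. ETV5 differed by 0.52 ± 0.215 (unadjusted p = 0.0396). Without replicate 2 the difference was 1.08 for SPRED1, 0.80 for SPRY4 and 0.77 for ETV5. That fit sets replicate 1 alone, 1 library a group, against replicates 3 and 4.

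Over the 12 libraries, after the mean of each replicate number was taken out, the deviations of log2(FPKM + 1) of the members were compared in pairs, as a description over libraries that share treatment and depth. DUSP6 correlated with SPRY4 at Pearson r = 0.90 and with ETV5 at 0.90, SPRY4 with ETV5 at 0.92, and SPRED1 with ETV5 at 0.91 (n = 12). DUSP5 correlated with the other 9 members at -0.52 to 0.21. Of 9607 genes with a mean of at least 2 FPKM, those most like DUSP6 were MLPH (0.98), CYSRT1 (0.96), TBC1D8 (0.96), SH3D21 (0.96) and VGF (0.95). MLPH, which links melanosomes to myosin, was at 7.33 and 6.96 FPKM in controls 3 and 4, 8.48 and 9.44 with magnolin, and 12.8 and 11.8 with the fraction.

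The rest of the pathway was read from 3 lists, for the fraction against control in replicates 3 and 4. Of 27 genes of the cascade itself, all tested, 2 rose and 5 fell (limma), with a median of -0.09. The same rule called 19.9% of all genes tested, so the 7 of 27 are near the background share and say nothing particular of the cascade. MKNK2, a kinase that ERK activates, rose from 41.0 ± 0.995 to 72.1 ± 10.5 FPKM (0.79 ± 0.111, adjusted p = 0.00697). MAPK3, which encodes ERK1, fell from 10.1 ± 0.00969 to 5.99 ± 0.401 (-0.67 ± 0.0791, adjusted p = 0.00415). NRAS fell from 24.1 ± 1.15 to 16.8 ± 0.663, and RPS6KA3, a kinase below ERK, fell from 24.3 ± 0.324 to 16.6 ± 2.38. EGFR was at 28.5 ± 0.713 and 32.6 ± 1.18 and did not pass (adjusted p = 0.123); it was chosen after its values were seen.

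Of 14 relatives of the members 12 were tested, 3 rose and 1 fell, with a median of 0.14, beside 19.9% of all genes tested called in either direction and 8.33% as higher. DUSP1, a phosphatase of stress kinases and ERK, rose from 6.29 ± 0.187 to 12.3 ± 1.03 FPKM (0.87 ± 0.0867, adjusted p = 0.00253). SPRY1 rose from 1.63 ± 0.0902 to 3.0 ± 0.0352 and PHLDA3, an inhibitor of AKT, from 1.48 ± 0.638 to 4.01 ± 1.53. DUSP9, which also acts on ERK, fell from 2.30 ± 0.245 to 0.758 ± 0.0542 (-0.90 ± 0.150, adjusted p = 0.0116). Of the DUSP genes tested, members included, DUSP1, DUSP4 and DUSP6 were called higher and DUSP9 lower. DUSP2, DUSP5, DUSP7, DUSP8, DUSP10, DUSP14 and DUSP16 did not pass.

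Of 18 other genes that respond to ERK 17 were tested, 7 were called higher and none lower, with a median of 0.20. The same rule called 8.33% of all genes tested as higher. At an unadjusted p under 0.05 there were 8, the 7 called and KCNN4, which was lower with the fraction. KCNN4, chosen after its values were seen, was at 5.75 ± 0.267 in control and 3.23 ± 0.663 FPKM with the fraction (-0.68 ± 0.188, limma, adjusted p = 0.0528). UPP1, uridine phosphorylase, rose from 26.0 ± 0.152 to 98.9 ± 9.35 FPKM (1.89 ± 0.0833, adjusted p = 0.000366). CCND1, cyclin D1, rose from 46.5 ± 2.80 to 87.1 ± 3.42, and the EGFR ligand gene AREG from 6.71 ± 0.985 to 11.9 ± 0.927. The immediate early gene EGR1, chosen after its values were seen, was at 12.3 ± 1.31 and 12.9 ± 1.12 (adjusted p = 0.705). With magnolin in the same replicates UPP1 was the 1 gene of the 3 lists that passed, from 26.0 to 46.8 ± 1.10 FPKM (0.82 ± 0.0833, adjusted p = 0.0239). In replicates 1 and 2 and in the joint fit no gene of the lists passed in any comparison (limma). For the fraction against control, 0 genes of the lists were at an unadjusted p under 0.05 in replicates 1 and 2, and in the joint fit 6 of 27 genes of the cascade, 4 of 12 relatives and 7 of 17 responsive genes were, beside 19.4% of all genes tested.

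In parental HCC827 cells, whose 2 libraries stand in a table of their own, the order of the members differed from that of the NCI-H1975 controls 3 and 4. The values are set side by side, with no test. PHLDA1 was highest (28.7 and 28.5 FPKM), followed by DUSP5 (14.8 and 12.5), SPRED2 (12.2 and 10.8) and ETV4 (9.76 and 9.83), none of which overlapped the next. ETV5 (9.50 and 8.64), DUSP6 (7.48 and 10.4) and SPRY2 (7.23 and 8.76) overlapped in that order, and the range of DUSP6 also spanned ETV4. DUSP4 (6.37 and 5.95), SPRED1 (5.17 and 5.23) and SPRY4 (1.89 and 1.99) followed without overlap. By mean level SPRED2, ETV4 and DUSP6 stood higher in the order than in controls 3 and 4, and DUSP4, SPRY2 and SPRED1 lower. In control 1, from the other NCI-H1975 table, SPRED2 (13.4 FPKM) was at rank 3 and SPRY2 (6.50 FPKM) at rank 7, the ranks they had by mean in HCC827. The epithelial marker sum was 1963 to 2149 FPKM in these libraries, and the mesenchymal sum was 45.0 to 45.7, beside 235 to 240 in controls 3 and 4.

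**Figure D4:**
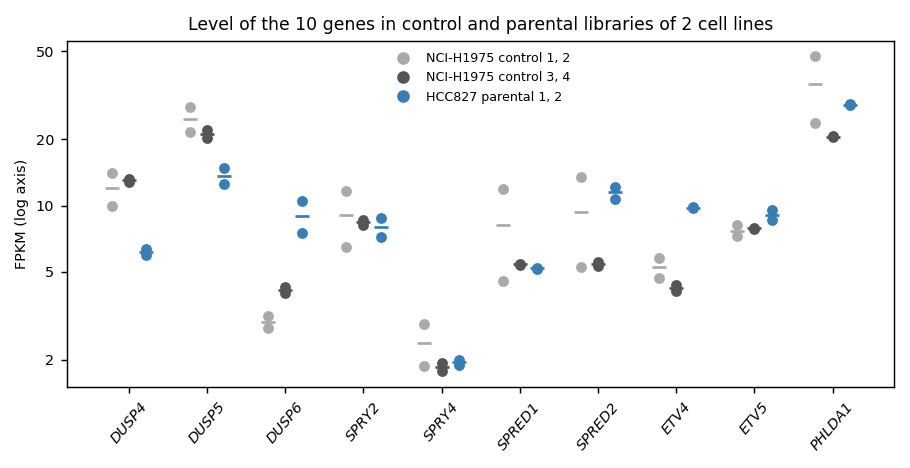
FPKM (log axis) of the 10 genes in NCI-H1975 control libraries 1 and 2 (light grey), 3 and 4 (dark grey) and parental HCC827 libraries (blue), with points for libraries and lines for means; the 3 sets were normalized separately. DUSP6 and ETV4 lie higher in HCC827 (7.48 to 10.4 and 9.76 to 9.83) and DUSP4 lies lower (5.95 to 6.37).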

How the data were processed

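Total RNA of NCI-H1975 and HCC827 cells was sequenced; per the labels' protocols RNA quality was checked on an Agilent bioanalyzer and libraries followed an NEB protocol, either common or strand-specific. The authors deposited FPKM per gene in 3 tables, with hg38 as the build per the submitters' processing notes; the aligner, counter and strand setting were not given in the sources used here. GENCODE 29 held all 58735 identifiers with the same coordinates. FPKM times gene length gave whole reads (tolerance 0.05, genes up to 2000 reads), and these rebuilt reads served for depth (15.9 to 21.3 M reads) and for limma voom only. Of the HCC827 columns 2 match no label and were not used, so the planned comparison with resistant cells was not run.

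Values were taken as log2(FPKM + 1). Genes with at least 1 FPKM in at least 2 libraries (in each table for joint fits) were tested with limma 3.58.1 (trend) in R 4.3.3, 3 groups sharing 1 spread, with Benjamini-Hochberg adjustment over all genes and a threshold of 0.05. All 10 genes passed the filter in every fit. The separate fits of replicates 1 and 2 and of replicates 3 and 4 were tested on simulated data with a spread set by hand. The joint fit, the test of difference between the sets and limma voom were not. All 10 members are always named; of each pathway list at most 4 called genes are named per comparison, by size of change with a mean of at least 2 FPKM in the higher group; 1 gene that this rule names is not reported here. The members and lists were chosen with earlier results of these data known.

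Deviations from group means correlated at 0.21 to 0.90 for the 12 pairs of libraries with the same replicate number. In 8 of the 12 the library of the same number was the best match in the other group. These group means span both sets of replicates, so the difference between the sets enters the values. Within replicates 1 and 2 the values were 0.75 to 0.80 (6 of 6 best), and within replicates 3 and 4 -0.15 to 0.13 (2 of 6). With 2 libraries a group their deviations mirror each other, so both replicate numbers give the same value. Each value is therefore counted 2 times within a set, and a best match there only means a value above 0. No label pairs the libraries, and for replicates 3 and 4 the check did not show pairing. In the joint fit the block also kept each difference within a separately normalized set. Alternatives were a replicate block, a pseudocount of 0.1, no filter, median-ratio rescaling, limma voom, the 2 groups alone, leaving out each library and, chosen after seeing the data, protein-coding genes only.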

Additional observations from a re-analysis of the deposited data

Results flagged for a closer look

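In 9 of the 30 groups of 4 NCI-H1975 libraries (10 genes, 3 groups), 1 library lay far from the other 3. It passed Dixon's 95% limit of 0.83 of the range. Chance does so in about 1 of 20 groups if the groups are independent and each comes from 1 population. Here the 10 genes share the same 12 libraries, and each group of 4 spans separately normalized sets. The 9 are thus a description and cannot be set against that rate. All 9 came from replicates 1 and 2, whose table was normalized apart from that of replicates 3 and 4. In control 1, SPRED1 was high at 11.9 FPKM, SPRED2 at 13.4, PHLDA1 at 47.4 and SPRY4 at 2.91. SPRED2 was also high in magnolin 1, at 11.5, and in fraction 1, at 11.4. DUSP4 was low in magnolin 1, at 8.91, DUSP6 was low in magnolin 2, at 3.53, and SPRY2 was high in fraction 2, at 13.9.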

How the results depend on the processing

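In replicates 3 and 4, the fraction against control called 2918 genes, 1598 without the filter on low values and 728 to 3174 with 1 library left out (728 without control 4, 947 without control 3); of the 10 members it called 7, or 4 to 8 with 1 library left out. Magnolin against control called 92 genes: 43 with the replicate block, 0 without the filter, 577 with limma voom, 165 with the 2 groups alone, 395 among protein-coding genes only and 0 to 154 with 1 library left out (0 without any 1 control or magnolin library); limma voom called 1 member. The fraction against magnolin called 2188 genes: 1311 with the replicate block, 752 without the filter, 3311 with limma voom, 1034 with the 2 groups alone and 226 to 3017 with 1 library left out. Its 5 members became 2 without the filter, 2 with the 2 groups alone and 0 to 6 with 1 library left out. With the block, pairing the libraries by number, 24, 130 and 24 genes passed in replicates 1 and 2 in place of 0, and no member did. The block ended 2 calls of members in replicates 3 and 4, SPRY2 (0.0620) and, against magnolin, DUSP4 (0.0730), and no other. With the 2 groups alone, the fraction against control in replicates 3 and 4 called 5 members. SPRY2 (limma, adjusted p = 0.0726) and PHLDA1 (0.0528) then did not pass.

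In the joint fit the fraction against control called 68 genes: 1 with a table term and no replicate block, 0 without the filter, 213 with limma voom and 0 to 191 with 1 number left out; of the members it called 1, or 0, 0, 3 and 0 to 3 in that order. With limma voom 21 genes passed for magnolin and 7 for the fraction against magnolin; for magnolin 0 to 4 did with 1 number left out. For the difference of the fraction effect between the separate sets of replicates, 1 gene passed, 78 with the replicate block and 0 to 509 with 1 number left out (0 to 2 members), and for that of magnolin 0 to 429. The causes were not tested. Where a group was left with 1 library, that library was assumed to vary like the others. No member called in a main fit changed direction under these alternatives. ETV4, not called in the main fit of the fraction against control in replicates 3 and 4, ranged from -0.06 to 0.56. The planned comparison of resistant HCC827 cells and its alternatives were not run. Rescaling by median ratios moved no median of all genes by as much as 0.001. With 2 libraries a group and table, small changes could not be shown in replicates 1 and 2, where replicates lay far apart.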
